A study of Mus musculus with 6 samples.

Results

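The let-7 family of microRNAs (miRNAs), with its close relative miR-98, was examined in N2A cells, a line grown from a mouse neuroblastoma. Members were taken by name, as the mouse entries mmu-let-7a, mmu-let-7b, mmu-let-7c, mmu-let-7d, mmu-let-7e, mmu-let-7f, mmu-let-7g, mmu-let-7i, mmu-let-7j and mmu-miR-98 with every arm and length or substitution variant. The mouse prefix is left out below. The rule gave 18 of 1080 listed small RNA entries, or 17 once 2 entries with the same values in every library were counted as 1. Of the 17, 10 came from the 5p arm and 7 from the 3p arm. The libraries were 3 of cells given the control siRNA si-NC and 3 of cells given si-circCpsf6, which targets the circular RNA circCpsf6, and both groups received siRNA at 100 nM from a lipid reagent. The family was singled out because its values differed between these groups, so the values below are a description of that contrast and no p-value is given for a member. How far circCpsf6 was lowered was not analysed here. Nothing in the labels says that replicates were separate cultures, so the spread between libraries may be technical.

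The let-7 miRNAs are processed from several separate hairpins into nearly identical mature strands that are loaded into Argonaute proteins and repress messenger RNAs paired with their seed. They accumulate as cells differentiate and hold down Ras genes, Hmga2 and Lin28, which favour growth and the undifferentiated state, and in neuroblastoma the RNA-binding protein Lin28b is known to restrain them. Lin28 proteins bind the loop of let-7 precursors, in part through a GGAG motif, and recruit enzymes that add uridines to the precursor. In human cells the precursors of let-7c and let-7e, with one of the let-7a copies, are cut by Dicer without an added uridine, whereas the others first need a single one added.

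The 5p strands carry the values and differ from each other by only a few bases, so they are shown in full (RefSeq, GRCm38.p6), with the seed, bases 2 to 8, in capitals.
let-7a-5p: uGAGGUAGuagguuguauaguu
let-7b-5p: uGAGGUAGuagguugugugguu
let-7c-5p: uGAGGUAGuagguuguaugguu
let-7d-5p: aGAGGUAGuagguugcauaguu
let-7e-5p: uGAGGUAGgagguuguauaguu
let-7f-5p: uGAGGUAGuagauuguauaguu
let-7g-5p: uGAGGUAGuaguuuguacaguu
let-7i-5p: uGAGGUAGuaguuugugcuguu
miR-98-5p: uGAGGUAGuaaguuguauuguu
All 9 share the seed and are 22 bases long. With positions counted from 1 at the 5′ end of the first strand named, let-7a-5p differs by a single base from let-7c-5p (A19G), from let-7e-5p (U9G) and from let-7f-5p (G12A), and let-7b-5p differs by a single base from let-7c-5p (G17A). How reads were divided between such near-identical strands is not given in the sources used here, so the split between them is uncertain.

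For 2 entries the sequence spelled by the name belongs to another member. The suffix was read as a substitution at a position of the reference strand, and for 19 of 19 mouse-named entries with a single substitution and an unshifted 5′ end the reference held the base that the suffix names. The entry let-7a-5p_1ss19AG spells let-7a-5p with A19G, which is the sequence of let-7c-5p, and its values equalled those of let-7c-5p in all 6 libraries. It is counted once, as let-7c-5p. The entry let-7j_R-1_1ss8TG, called the let-7j variant here, spells let-7j shortened by 1 base at its 3′ end with U8G. Its first 22 bases are those of let-7i-5p and are followed by an A, where the let-7i hairpin continues with another base (G23A, hairpin base first). Capitals mark position 8 in each strand and the last base of the variant.
let-7j: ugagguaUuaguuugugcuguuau
let-7j variant: ugagguaGuaguuugugcuguuA
let-7i-5p: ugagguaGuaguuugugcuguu
The variant therefore cannot be told apart by sequence from let-7i-5p with an added A.

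Each value is the authors' normalized read number for an entry, so read depth cannot be known and the counting error of a value cannot be estimated. Library totals over all 1080 listed entries ran from 2570449 to 3268351, lowest in si-NC replicate 3. That library also listed the fewest entries above 0, 578 against 747 to 880 in the others. By limma on log2(value + 1) with Benjamini-Hochberg adjustment, 0 of 916 entries tested (0%) had an adjusted p under 0.05, and 57 had an unadjusted p under 0.05. Without si-NC replicate 3 the number called was 4, and with all libraries weighted by quality it was 31. In this bulk RNA, fewer cells holding a miRNA and less of it per cell cannot be told apart. Among markers of neuronal and neuroendocrine cells, all 7 listed miRNAs had values, led by miR-7a-5p, and their sum ran from 134117 to 259440 across the controls and from 234987 to 388323 across the si-circCpsf6 libraries. The listed markers miR-9-5p and miR-124-3p were low, with means over the 6 libraries of 148 and 393. Of the 7, 5 had a higher mean with si-circCpsf6. miR-132-3p was higher without overlap, at 2312, 2507 and 2393 with si-NC against 3641, 3927 and 2897, where 6.77% of all entries tested were, and miR-9-5p was lower by a gap of 1, at 172, 180 and 154 against 147, 153 and 83. The 2 blood and immune markers analysed summed to at most 46, the 2 muscle markers to at most 132 and the liver miR-122-5p to at most 5 in any library. Fibroblast and smooth muscle markers, led by miR-143-3p, summed to 66409 to 105495 across the controls and 84794 to 107228 across the si-circCpsf6 libraries. All 4 of them had a higher mean with si-circCpsf6, and miR-214-3p was higher without overlap, at 651, 797 and 201 with si-NC against 1131, 1482 and 1216. The part of these markers in the let-7 values was not tested.

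Within the family, let-7c-5p stood far above the rest, and it was the 5p member whose groups lay closest together. Its values were 44183, 41163 and 39676 in si-NC replicates 1, 2 and 3 and 36203, 35816 and 39830 in the si-circCpsf6 libraries. The highest si-circCpsf6 library lay just above the lowest si-NC library, so the groups overlapped. The means were 41674 ± 2297 and 37283 ± 2214 (SD over the 3 libraries of a group, n = 3, here and below), a log2 change of -0.16 with an SE of 0.24. A log2 change here is the difference of group means of log2(value + 1), si-circCpsf6 minus si-NC, with its SE from the limma fit, and it understates differences of low entries.

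let-7e-5p, processed from a transcript shared with miR-99b and miR-125a, was second in level. It was listed at 8303, 8686 and 5478 with si-NC, against 4726, 4872 and 4904 with si-circCpsf6. The groups did not overlap, although si-NC replicate 3 came close to the si-circCpsf6 libraries. Its si-circCpsf6 mean was 64.5% of the si-NC mean (log2 change -0.60, SE 0.26), and without si-NC replicate 3 the log2 change was -0.81.

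The members let-7g-5p, let-7f-5p and let-7i-5p shared a pattern in the controls, with si-NC replicate 3 well below the other si-NC libraries. let-7g-5p was listed at 8183, 7804 and 4697 with si-NC, against 2772, 2912 and 2730 with si-circCpsf6 (log2 change -1.26, SE 0.28). let-7f-5p was listed at 6165, 5191 and 3324 with si-NC, against 1950, 2071 and 1919 with si-circCpsf6 (log2 change -1.26, SE 0.29). For both, even the low si-NC replicate 3 stood above every si-circCpsf6 library, at 1.61 times the highest of them. These strands, from hairpins on different chromosomes, kept a nearly fixed ratio: let-7f-5p was 70.9 ± 4.41% of let-7g-5p with si-NC, against 70.6 ± 0.463% with si-circCpsf6.

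let-7i-5p showed the widest separation of the family. It was listed at 4476, 3314 and 2283 with si-NC, against 995, 1001 and 847 with si-circCpsf6, where the mean was 28.2% of the si-NC mean. The lowest si-NC library was 2.28 times the highest si-circCpsf6 library. The log2 change was -1.77 (SE 0.31), and leaving out any single library moved it between -2.03 and -1.54. The let-7j variant, which spells let-7i-5p with an added A, was listed at 221, 209 and 125 with si-NC, against 93, 80 and 55 with si-circCpsf6 (log2 change -1.26, SE 0.47). It too had si-NC replicate 3 as its lowest control. As a percent of let-7i-5p it stood at 4.94, 6.31 and 5.48 with si-NC, against 9.35, 7.99 and 6.49 with si-circCpsf6. This ratio was thus higher in every si-circCpsf6 library than in any si-NC library, with 1 value of each group close together.

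In let-7a-5p, let-7b-5p, let-7d-5p and miR-98-5p the order within the controls was the other way round, with si-NC replicate 3 the highest of the si-NC libraries. let-7a-5p was listed at 2507, 2581 and 2631 with si-NC, against 1157, 1066 and 1356 with si-circCpsf6 (log2 change -1.12, SE 0.24). let-7b-5p was listed at 3381, 3315 and 3971 with si-NC, against 1810, 1408 and 1722 with si-circCpsf6 (log2 change -1.11, SE 0.25). Both means in si-circCpsf6 were close to 46% of the si-NC means, at 46.4% and 46.3%, and the spread within si-NC was smallest for let-7a-5p, with a coefficient of variation of 2.42%.

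let-7d-5p, the only 5p member that begins with A, was listed at 656, 662 and 807 with si-NC, against 304, 233 and 273 with si-circCpsf6 (log2 change -1.39, SE 0.30). miR-98-5p, encoded beside a let-7f copy in an intron of Huwe1, was listed at 366, 282 and 448 with si-NC, against 108, 114 and 163 with si-circCpsf6 (log2 change -1.50, SE 0.38). For these 4 members si-NC replicate 3 stood at 103% to 138% of the mean of the other si-NC libraries, whereas for let-7f-5p, let-7g-5p, let-7i-5p and the let-7j variant it stood at 58.1% to 58.8%. The family therefore did not move as a unit across the controls, yet 9 of the 10 5p entries had every si-NC value above every si-circCpsf6 value. Of all 916 entries tested 4.91% did, and of the 373 with a mean of 100 or more 8.85% did.

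**Figure D1:**
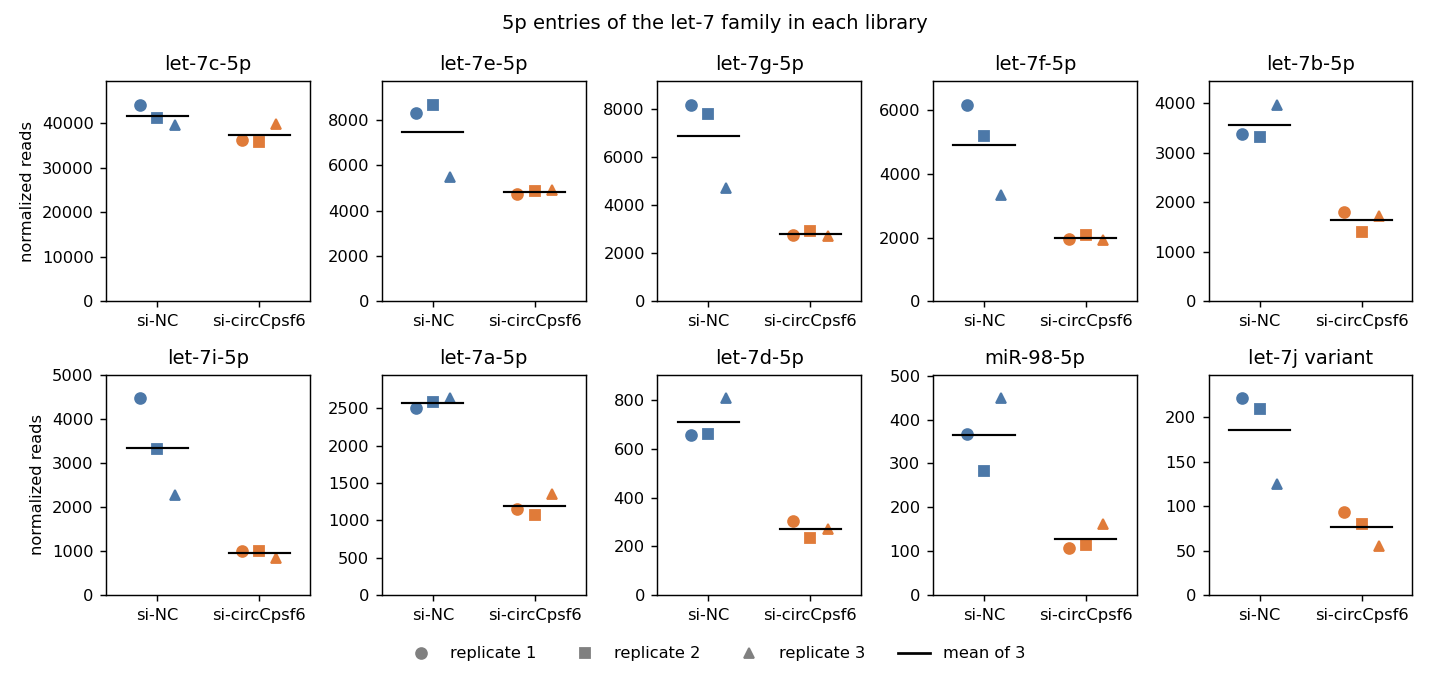
Normalized reads of each 5p entry (vertical axes from 0, one scale per panel) in the 3 si-NC and 3 si-circCpsf6 libraries, with a symbol for each replicate and a line at the group mean. In every panel but that of let-7c-5p the si-NC points all lie above the si-circCpsf6 points, and si-NC replicate 3 is the lowest control in 6 panels and the highest in 4.

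**Figure D2:**
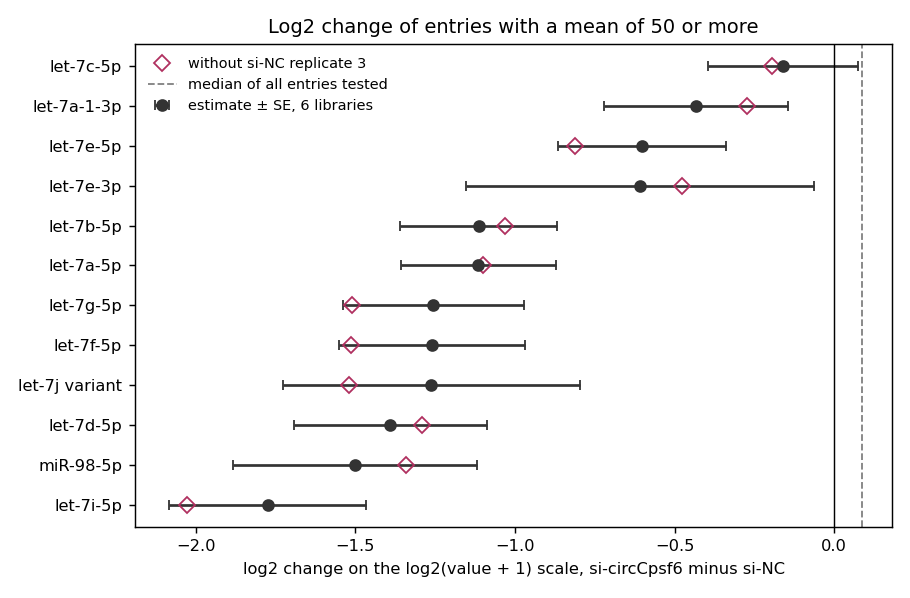
Log2 change (horizontal axis, log2(value + 1) scale, si-circCpsf6 minus si-NC) of the 12 entries with a mean of 50 or more, with its SE and, as open diamonds, its value without si-NC replicate 3. let-7c-5p sits nearest 0 at -0.16 and let-7i-5p farthest at -1.77, and the dashed line is the median of all entries tested, 0.086.

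The order of the 5p levels was the same in the 3 si-circCpsf6 libraries, from let-7c-5p, let-7e-5p, let-7g-5p, let-7f-5p, let-7b-5p, let-7a-5p, let-7i-5p, let-7d-5p and miR-98-5p down to the let-7j variant, and the ranges of neighbours in this order did not overlap there. In si-NC, let-7c-5p at the top and let-7d-5p, miR-98-5p and the let-7j variant at the bottom were apart from their neighbours. The 6 members between, let-7e-5p, let-7g-5p, let-7f-5p, let-7b-5p, let-7i-5p and let-7a-5p, each overlapped the next in level across the controls. Within each si-NC library let-7e-5p and let-7g-5p still followed let-7c-5p in that order, whereas let-7f-5p, let-7b-5p, let-7i-5p and let-7a-5p changed places. By mean, let-7i-5p came above let-7a-5p in si-NC but below it in si-circCpsf6.

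All 17 members passed the filter on low values (a mean of 1 or more), and 16 of them had a lower mean in si-circCpsf6. For 10 of the 17 every si-circCpsf6 library lay below every si-NC library, where 4.91% of all 916 entries tested did. A log2 change of -1 or less was reached by 10 members, 8 of them 5p entries, where 10.8% of all entries had one. The median log2 change was -1.26 over the 5p entries and 0.086 over all entries tested, of which 44.3% were below 0. Among the 373 entries with a mean of 100 or more, 4.02% had a log2 change of -1 or less, namely 8 of the 11 family entries in that range and 7 others. In the same range 8.85% were lower without overlap, namely 9 of the 11 family entries and 24 others. Since the family was chosen from this contrast, these shares are given only as the setting of its counts.

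**Figure D3:**
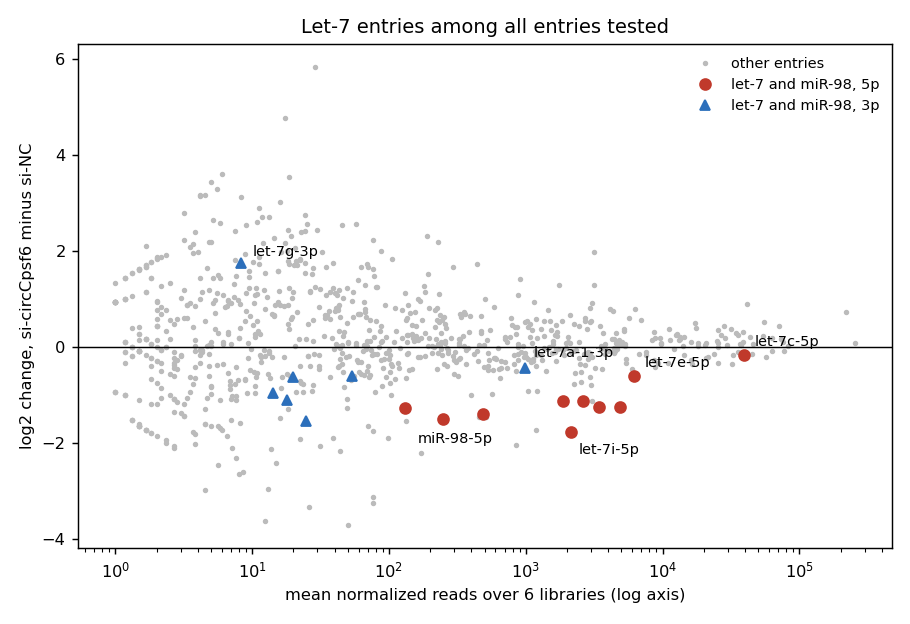
Log2 change (vertical axis) against the mean over the 6 libraries (horizontal log axis) for the 916 entries tested, with 5p members as circles, 3p members as triangles and other entries in grey. The 5p members other than let-7c-5p and let-7e-5p lie between -1.77 and -1.11, and low entries scatter widely in both directions.

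Summed over its 17 entries, the family stood at 79521, 74535 and 65009 with si-NC, against 50928, 50487 and 54835 with si-circCpsf6, or 71.3% by mean. As a share of the library total it was 2.61%, 2.55% and 2.53% with si-NC, against 1.77%, 1.54% and 1.90% with si-circCpsf6. The share varied less among controls than the sum did, and the groups did not overlap. Identical rows were merged in the family but not in the total, which lowers this share. With identical rows kept apart in both, the mean share was 4.03% with si-NC, against 2.99% with si-circCpsf6. Because let-7c-5p dominated the sum, the remaining 16 entries were also summed alone. They stood at 35338, 33372 and 25333 with si-NC, against 14725, 14671 and 15005 with si-circCpsf6, which is 47.2% of the si-NC mean.

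The makeup of the family differed between the groups. let-7c-5p made up 55.6%, 55.2% and 61.0% of the family sum with si-NC, against 71.1%, 70.9% and 72.6% with si-circCpsf6. let-7i-5p made up 4.53 ± 1.06% and 1.83 ± 0.245%, let-7g-5p 9.33 ± 1.82% and 5.40 ± 0.397%, and let-7f-5p 6.61 ± 1.35% and 3.81 ± 0.302%. let-7e-5p held a similar part of the family in both groups, at 10.2 ± 1.63% and 9.29 ± 0.354%, and its groups overlapped on this measure. let-7a-5p, a single base from let-7c-5p, was 6.19 ± 0.483% of let-7c-5p with si-NC, against 3.19 ± 0.214% with si-circCpsf6.

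**Figure D4:**
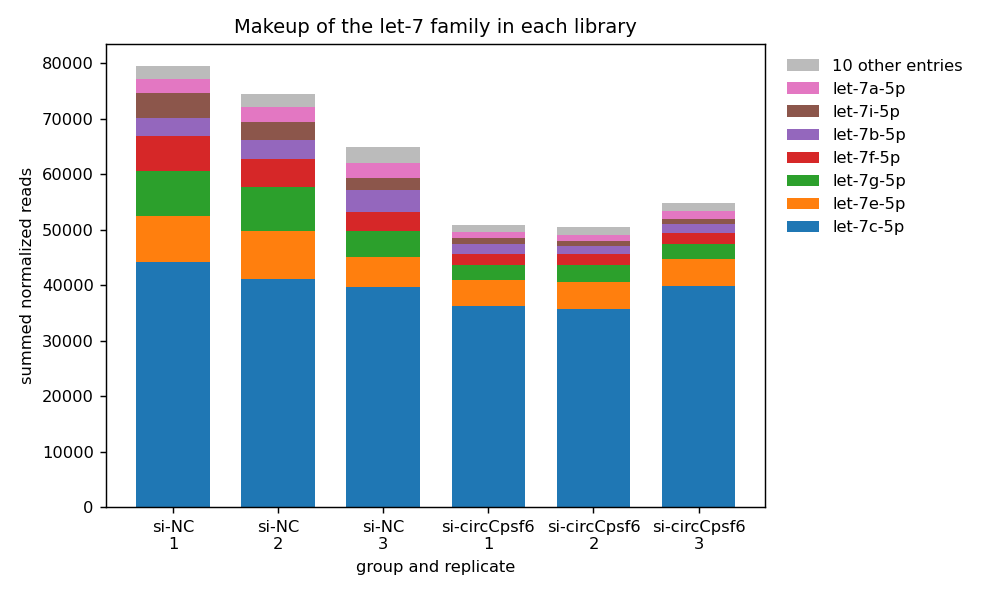
Summed normalized reads of the family (vertical axis from 0) in each library, stacked by entry, with the 10 entries outside the 7 most abundant drawn together. The let-7c-5p block is of similar height in all 6 bars, 35816 to 44183, while the blocks above it sum to 25333 to 35338 with si-NC, against 14671 to 15005 with si-circCpsf6.

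The 3p strands, the arm that is mostly discarded when the 5p strand is loaded, held 1.85 ± 0.531% of the family sum with si-NC, against 1.76 ± 0.155% with si-circCpsf6. Most of this was a single entry, let-7a-1-3p, shown here because it cannot be given to a single hairpin.
let-7a-1-3p: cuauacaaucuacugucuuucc
RefSeq lists the same 22 bases for let-7c-2-3p, so its reads can come from a let-7a or a let-7c hairpin. It was listed at 892, 1125 and 1393 with si-NC, against 741, 827 and 926 with si-circCpsf6 (log2 change -0.43, SE 0.29). The groups overlapped, and si-NC replicate 3 was the highest library. Set beside let-7a-5p, it was 30.4 ± 4.19% of the pair with si-NC, against 41.1 ± 2.37% with si-circCpsf6, without overlap. Set beside let-7c-5p, it ran from 1.98% to 3.39% of the pair with si-NC, against 2.01% to 2.27% with si-circCpsf6, with overlap.

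let-7e-3p was the other 3p entry with a mean of 50 or more. It was listed at 58, 59 and 77 with si-NC, against 37, 35 and 56 with si-circCpsf6, so the groups were separated by only 2 normalized reads. It held 0.918 ± 0.405% of its pair with let-7e-5p with si-NC, against 0.873 ± 0.224% with si-circCpsf6.

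The other 5 3p entries had means under 50 and are given as values only. let-7i-3p was at 16, 15 and 89 with si-NC, against 8, 6 and 15 with si-circCpsf6, with si-NC replicate 3 again apart, here as the highest. The let-7b-3p entry, whose name spells C22U at its last base, was at 39, 57 and 0 with si-NC, against 6, 9 and 8 with si-circCpsf6. let-7d-3p was at 41, 38 and 0 with si-NC, against 6, 23 and 0 with si-circCpsf6. Both were listed at 0 in si-NC replicate 3, where their 5p strands were the highest of the controls. The let-7f-2-3p entry, 1 base longer than its reference, was at 15, 34 and 10 with si-NC, against 6, 10 and 10 with si-circCpsf6. let-7g-3p was at 19, 0 and 0 with si-NC, against 6, 4 and 21 with si-circCpsf6 and was the only member with a higher mean in si-circCpsf6.

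The hairpins lie at 12 places for the 9 reference strands above (GRCm38, RefSeq positions with GENCODE M21 genes, not the authors' build). let-7c-5p can come from Mirlet7c-1 in an intron of the long noncoding RNA Mir99ahg (chr16:77599657-77599750) and from Mirlet7c-2 in an exon of Lncppara (chr15:85706603-85706697). Mirlet7b lies 621 bases from Mirlet7c-2 in an exon of the same transcript (chr15:85707319-85707403). let-7b-5p was 8.57 ± 1.26% of let-7c-5p with si-NC, against 4.42 ± 0.540% with si-circCpsf6, and the part of let-7c-5p that came from this shared transcript cannot be told apart. Mirlet7a-1, Mirlet7f-1 and Mirlet7d lie in exons of the noncoding RNA 6720427I07Rik on chromosome 13, with 261 and 1714 bases between neighbours. Their 5p strands had log2 changes of -1.12, -1.26 and -1.39, while si-NC replicate 3 was the lowest control for let-7f-5p and the highest for let-7a-5p and let-7d-5p. Mirlet7f-2 lies in an intron of Huwe1, 785 bases from Mir98. Mirlet7a-2 lies in an intron of the noncoding RNA 3110039I08Rik (chr9:41536716-41536811), Mirlet7g in an intron of Wdr82 (chr9:106178840-106178927), Mirlet7e in an intron of Spaca6 (chr17:17830352-17830444) and Mirlet7i in an exon of the pseudogene D630033A02Rik (chr10:122985640-122985724).

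Several let-7 hairpins share a primary transcript with miR-99, miR-100 or miR-125, and for all 5 of these partners the groups overlapped. miR-99a-5p, 656 bases from Mirlet7c-1, was at 2131, 2139 and 1689 with si-NC, against 1402, 1747 and 2231 with si-circCpsf6. miR-125a-5p, 367 bases from Mirlet7e, was at 14042, 18584 and 5998 with si-NC, against 14402, 16147 and 10596 with si-circCpsf6, and miR-99b-5p of the same transcript at 86961, 72432 and 40397, against 51987, 69421 and 58802. The means of miR-100-5p and miR-125b-5p, which lie in the host transcript of Mirlet7a-2 (miR-125b-5p also has another hairpin), were 107% and 113% of the si-NC means. For all 5 partners si-NC replicate 3 was the lowest control, as it was for let-7c-5p and let-7e-5p. For let-7a-5p, in contrast, si-NC replicate 3 was the highest control.

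The stretch of each let-7 hairpin between its arms is shown because it holds the Lin28 motif and because its length differed among members, with GGAG in capitals.
Mirlet7c-1: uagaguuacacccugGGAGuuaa
Mirlet7c-2: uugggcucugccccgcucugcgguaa
Mirlet7e: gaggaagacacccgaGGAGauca
Mirlet7a-1: uuagggucacacccaccacugGGAGauaa
Mirlet7a-2: uagaguuacaucaagGGAGauaa
Mirlet7f-1: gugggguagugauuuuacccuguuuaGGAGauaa
Mirlet7f-2: uuagggucauaccccaucuuGGAGauaa
Mirlet7g: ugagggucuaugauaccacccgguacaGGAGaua
Mirlet7i: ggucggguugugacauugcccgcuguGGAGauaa
Mirlet7d: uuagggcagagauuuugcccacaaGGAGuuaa
Mirlet7b: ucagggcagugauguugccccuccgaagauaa
The motif, searched on the RNA strand only, was present in 9 of these 11 stretches and not in those of Mirlet7c-2 and Mirlet7b. Among the 42 other mouse hairpins with both arms listed and a stretch of the same range of lengths, 23 to 34 bases, 11.9% held it. let-7b-5p, the only strand whose single hairpin lacks the motif, stood at 46.3% of si-NC, and let-7c-5p, which has 1 hairpin with it and 1 without, at 89.5%. The other 6 strands shown, whose hairpins all hold it, stood between 28.2% and 64.5%.

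The members can also be ordered by the length of this stretch, a grouping whose limits were chosen after the values were seen. The 2 members whose hairpins all have stretches of 26 bases or fewer, let-7c-5p (23 and 26 bases) and let-7e-5p (23), stood at 89.5% and 64.5% of si-NC. The 4 members whose hairpins have stretches of 32 bases or more, let-7b-5p, let-7d-5p, let-7g-5p and let-7i-5p, stood between 28.2% and 46.3%. let-7a-5p and let-7f-5p each have 2 hairpins of different length, 23 and 29 bases for let-7a-5p and 28 and 34 for let-7f-5p, and stood at 46.4% and 40.5%. Levels of Lin28 proteins and of the uridine-adding enzymes were not analysed here.

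**Figure D5:**
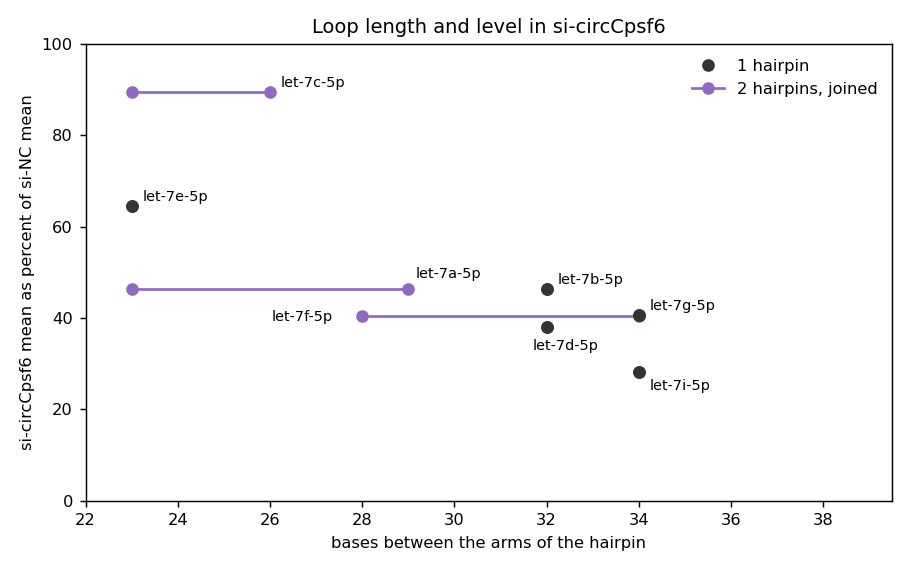
Mean in si-circCpsf6 as a percent of the si-NC mean (vertical axis) against the number of bases between the arms of the hairpin (horizontal axis) for 8 let-7 5p strands, where strands with 2 hairpins are drawn as a pair of joined points. let-7c-5p and let-7e-5p, at 89.5% and 64.5%, lie at 23 to 26 bases, and the 4 members at 32 bases or more lie between 28.2% and 46.3%.

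The non-members miR-107-3p, miR-143-3p and miR-200c-3p, whose precursors were reported to carry a GGAG loop bound by Lin28, did not share one direction. miR-107-3p was at 3046, 3131 and 2742 with si-NC, against 4168, 3646 and 4355 with si-circCpsf6, higher without overlap, where 6.77% of all entries were. miR-200c-3p, a low entry with a mean of 31.5, was at 30, 87 and 39 and at 10, 16 and 7. It was lower without overlap, where 4.91% of all entries tested were. miR-143-3p was at 89316, 62471 and 57213 and at 77180, 64854 and 89458, with overlap.

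The family profile was taken as the mean of the standardised log2(value + 1) of the 11 members with a mean of 100 or more. Members correlated with it over the 6 libraries with Pearson's r from 0.65 for let-7a-1-3p to 0.98 for let-7a-5p. Each member is itself part of the profile, which raises its r, so these values cannot be compared with those of other entries. Among 362 other entries at or above that mean, those most alike were the entry named after human miR-151b (r = 0.92), miR-338-5p_R-1 (0.91), miR-344f-3p (0.91), the entry named after platypus miR-194-5p (0.89) and miR-6540-5p_R+1 (0.89). All points share the same 6 libraries and the same 2 groups, so these values describe only which entries followed the same contrast. miR-344f-3p was at 993, 618 and 428 with si-NC, against 310, 196 and 207 with si-circCpsf6, with si-NC replicate 3 the lowest control as for let-7i-5p.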

How the data were processed

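Small RNA libraries of 6 N2A samples were grouped by title. The TruSeq Small RNA kit was used on total RNA, per the labels' protocols, and the build was mm9, per the submitters' processing notes. Which aligner, counting, normalization and miRNA reference were used is not given in the sources used here. Deposited values, which the authors normalized per the file headers, are whole numbers and were treated as a score, not as counts. Rows repeating an earlier row's values were merged where at least 3 libraries were above 0 or the names differed only by suffix, which left 1046 entries. Of these, 916 with a mean of 1 or more were fitted on log2(value + 1) with limma 3.58.1 (trended variance, group only) in R 4.3.3 and adjusted by Benjamini-Hochberg. This fit was tested on simulated data. Members, lists and the named-miRNA rule (all members, transcript partners, miRNAs with reported Lin28-bound loops and the 5 most alike entries) were chosen with earlier results of these data known. Same-seed miRNAs outside the family, such as let-7k, and the markers miR-142a, miR-223 and miR-206 were not analysed here. The stretch between the arms of the miR-98 hairpin is not reported here. All 18 member entries matched RefSeq sequences (GRCm38.p6). Alternatives were other pseudocounts, filters, scalings, variance models and sets of entries, each library left out, and the replicate number as a block. Python 3.11.15, pandas 2.3.3, numpy 2.4.6 and matplotlib 3.10.9 were used.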

Additional observations from a re-analysis of the deposited data

How the results depend on the processing

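The 132 recomputed log2 changes of the 12 members with a mean of 50 or more all kept their sign. They covered pseudocounts of 0.1 and 5, both rescalings, each library left out and the replicate block. All moved by less than the spread between replicates, but only the pseudocounts and rescalings could have moved them by more. With 3 libraries per group, leaving out a library cannot shift a group mean by that spread. The replicate block leaves the log2 change as it was. Where the groups of a member do not overlap, neither another pseudocount nor a library left out can reverse its sign. The number of entries called by limma ran from 0 to 4 with a library left out, and the 4 came without si-NC replicate 3 (lowest adjusted p 0.0392). It was 31 with array weights (lowest adjusted p 0.00172) and 0 in the remaining alternatives. There the lowest adjusted p ran from 0.0617 to 0.264. With a library other than si-NC replicate 3 left out, the lowest adjusted p ran from 0.303 to 0.628. The summed family as a percent of si-NC ran from 67.6 to 74.6 with a library left out, and was 67.9 at equal library totals and 70.6 with median-ratio factors. The difference in the family's share of the total was -1.04 percentage points, and that in the let-7c-5p share of the family 10.6 points, with identical rows kept apart, since the let-7c-5p values then count for let-7a as well. For the same reason the 3p share of let-7a reversed, from a difference of 10.7 points to -0.41. The count of members without overlap, 10 in the main setting, ran from 10 to 14 with a library left out. Leaving out a library can raise this count but cannot lower it. Under the rescalings, which put the median of all entries at 0.015 and 0.065, the count was 11 and 13. Same-numbered libraries did not deviate together in every pair (correlations 0.047, 0.48 and 0.40), so the numbers were not taken as pairs. Between differently numbered libraries the correlations ran from -0.44 to 0.18, below those of replicates 2 and 3. With a replicate block limma called 0 entries, with 87 at an unadjusted p under 0.05 against 57. The SEs of the 12 members were smaller with the block, such as 0.17 against 0.24 for let-7a-5p. Depth is unknown, so the counting error of low 3p entries, including those listed at 0, cannot be estimated.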
